A study of Mus musculus with 37 samples.

Results

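The comparison is of germinal vesicle (GV) and metaphase I (MI) mouse oocytes sequenced one by one in batch B of the study, as the sample labels name it. Its members are the 10 GV and 15 MI oocytes with that batch in their labels, 25 of the 37 oocytes in all. The other 12, 6 GV and 6 metaphase II (MII) oocytes of batch A, appear only where values are set side by side. All oocytes came from C57BL/6 females of 6 to 8 weeks, given 5 IU of pregnant mare serum gonadotropin (PMSG). The ovaries gave the GV oocytes 48 h later. The MII oocytes of batch A came from the ampulla of females that also got 5 IU of human chorionic gonadotropin (hCG) 48 h after PMSG, and were taken 15 h after hCG. The MI group began as denuded oocytes whose GV could still be seen, and 8 h at 37 °C and 5% CO2 in M16 brought them to their stage. Hyaluronidase was in the M2 drops used to gather the oocytes of each group. Oocytes went into lysis without polar body (pipetting) or zona pellucida (acidic Tyrode's solution). Single-cell cDNA was made by Smart-seq2, built into libraries with KAPA HyperPlus reagents and read as 150-base pairs on a NovaSeq instrument. The labels tie no oocyte to a mouse or a culture dish, so the p-values measure the spread between oocytes alone. Every MI oocyte was cultured and no GV oocyte was, so stage and culture cannot be told apart.

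A fully grown GV oocyte is arrested in prophase of the first meiosis and has nearly stopped transcribing. When meiosis resumes, the nuclear envelope breaks down, cyclin B and CDK1 drive the spindle of the first division, and stored maternal mRNAs are translated or cleared in a programme set largely by their poly(A) tails. The comparison asks which RNAs already differ by MI, before the polar body is extruded and well before the wave of mRNA clearance is complete.

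RSEM expected counts summed to between 7184193 and 17724506 per GV oocyte (median 11548239). The MI oocytes spanned 2709247 to 19390137 (median 12840682). The number of genes with 1 count or more was 15937 to 19355 (median 17977.5) at GV and 12654 to 19550 (median 17696) at MI, so the ranges overlapped. MI oocyte 15 stood apart by depth, with 2709247 counts and the 12654 genes. MI oocytes 4, 8 and 9 stood apart in another way. The authors deposited gene counts from HTSeq as well as from RSEM. In these 3 oocytes the typical gene had 1.13, 1.11 and 1.07 HTSeq counts per RSEM count, as the median of the 6357 genes that average 100 or more by both ways of counting. It was 2.03 to 2.19 in the 10 GV oocytes and 1.99 to 2.12 in the other 12 MI oocytes. Why was not tested, and the main counts are given with and without these 4 oocytes. The reads carried no molecular identifiers, so limits from counts cover counting error only.

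**Figure D1:**
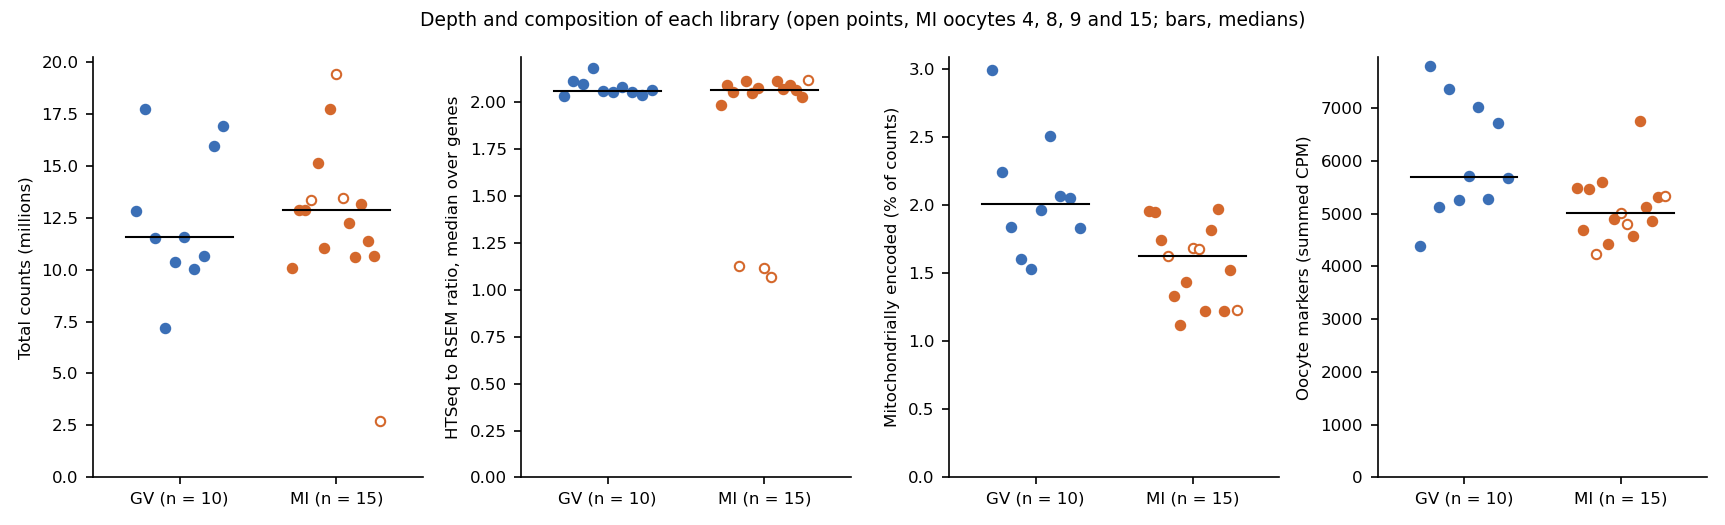
Each point is an oocyte, with GV on the left and MI on the right of each panel, open points for MI oocytes 4, 8, 9 and 15, and bars at the medians. From left to right the panels show total RSEM counts (scaled as the axis says), HTSeq counts per RSEM count of the median gene, the percent of counts in mitochondrially encoded genes, and the summed CPM of 15 oocyte markers; oocytes 4, 8 and 9 lie near a ratio of 1.1 and oocyte 15 lies lowest in depth.

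The libraries carried the marker RNAs of oocytes. All 15 oocyte markers passed the filter on low counts, and their summed level was 4395 to 7791 CPM (counts scaled to a common library size) at GV (median 5690) and 4227 to 6760 at MI (median 5005). Gdf9, the growth factor by which the oocyte acts on its follicle cells, was the most abundant of them per kilobase. Several markers of other ovarian cells were absent. Cyp17a1, which defines theca cells, was at 0 in all 25 oocytes, as were the endothelial marker Cdh5 and the macrophage markers Adgre1 and Lyz2. A count of 0 in an oocyte allows up to 3 counts at 95% confidence. Others were present, among them Pecam1, an endothelial adhesion protein, with a median of 61.4 CPM at GV and 56.9 at MI, and the granulosa list, with summed medians of 56.2 and 58.9 CPM. The stage of each oocyte rests on the labels.

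Few genes passed as different between GV and MI. Levels here are relative to the library, so rose and fell mean a change in share and not in RNA per oocyte. Spike-in (ERCC) counts were only 1 to 32 per GV oocyte and 0 to 25 per MI oocyte, and no absolute scale was made from them. Of 12543 genes tested with edgeR's quasi-likelihood test (at least 10 counts in at least 10 of the 25 oocytes), 12 rose at MI (0.0957%) and 6 fell (0.0478%) at a Benjamini-Hochberg adjusted p under 0.05. With a change of more than 2-fold as well, these were 11 higher (0.0877%) and 4 lower (0.0319%). The genes that rose were led by Tyr, Mpv17 and the noncoding RNA Gm45833, and those that fell by Gja1 and Ccnd2, which granulosa cells use, with Tle6, Hist1h4a, Timm22 and Grm2 after them. At an unadjusted p under 0.05 there were 792 higher and 599 lower genes. The median log2 fold change of all genes tested was 0.02 (quartiles -0.22 and 0.23). No gene separated the stages without overlap between oocytes, in either direction (0% and 0%). In batch A, by contrast in number, 1185 of 13094 genes were higher at MII than at GV (9.05%) and 1497 were lower (11.4%). Of these, 292 and 825 also changed by more than 2-fold. Batch A holds other oocytes in other numbers, and the difference between the counts was not tested.

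The counts rested on single oocytes. Without MI oocyte 9 they were 82 higher and 15 lower, and without GV oocyte 9 edgeR passed 0 higher and 2 lower, with 681 and 515 genes at an unadjusted p under 0.05 in that fit. No other tool was run with single oocytes left out. Leaving out any 1 of GV oocytes 1 to 8 or of MI oocytes 2, 3, 4, 7, 8, 11 and 13 left 3 to 6 higher genes. For the lower genes, leaving out any 1 of 18 oocytes (GV 1, 2 and 4 to 9, MI 2, 3, 4, 6, 7 and 10 to 14) left 2 or 3, and the count was 12 without GV oocyte 10 and 10 without MI oocyte 1. Without MI oocytes 4, 8 and 9 there were 33 higher and 4 lower genes, without MI oocyte 15 there were 18 and 6, and without all 4 there were 123 higher (0.981%) and 11 lower (0.0877%). DESeq2 passed 145 and 43 genes, limma-voom 0 and 4 (594 and 702 at an unadjusted p under 0.05). On HTSeq counts the quasi-likelihood test passed 0 genes in each direction, with 493 higher and 440 lower at an unadjusted p under 0.05, and no other tool was run on them.

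Tyr encodes tyrosinase, the rate-limiting enzyme of melanin synthesis. It was at 1.302 to 3.67 CPM in the GV oocytes (median 2.83) and at 0.689 to 23.4 in the MI ones (median 11.4). In 14 of 15 MI oocytes it lay above the highest GV oocyte, and MI oocyte 9 lay below the lowest. The log2 fold change was 2.03 (standard error 0.377, adjusted p = 0.0177). Mpv17, a protein of the inner mitochondrial membrane needed to keep mitochondrial DNA, was at 0.434 to 1.32 CPM at GV (median 0.783) and 0.689 to 7.85 at MI (median 3.71). The ranges overlapped through 2 oocytes, since 13 of 15 MI oocytes exceeded every GV oocyte. Its log2 fold change was 2.25 (standard error 0.421, adjusted p = 0.0177).

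Gm45833, a long intergenic noncoding RNA on chromosome 8, was at 0.651 to 2.96 CPM at GV (median 1.64) and 1.29 to 20.7 at MI (median 5.59). Here 12 of 15 MI oocytes exceeded all GV oocytes, and the log2 fold change was 2.28 (standard error 0.428, adjusted p = 0.0177). It overlaps Gm20388 on the other strand, and the strand of the reads is not given, so its counts are uncertain. Dennd5b, of the DENN-domain family that activates Rab GTPases, was at 4.24 to 10.8 CPM at GV (median 8.37) and 7.26 to 38.4 at MI (median 17.0). It was above every GV oocyte in 12 of 15 MI oocytes, with a log2 fold change of 1.28 and a standard error of 0.250 (adjusted p = 0.0265). Decr2, the peroxisomal reductase for unsaturated fatty acids, was at 0.443 to 1.72 CPM at GV (median 1.01) and 0.345 to 10.0 at MI (median 3.62). As for Tyr, 14 of 15 MI oocytes were above all GV oocytes and MI oocyte 9 was below them. The log2 fold change was 2.15 (standard error 0.435, adjusted p = 0.0376).

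The other 7 higher genes passed with adjusted p from 0.0466 to 0.04996, and each passed in 7 to 11 of the 25 fits with 1 oocyte left out, against 13 for Decr2, 20 for Dennd5b and 24 for Tyr, Mpv17 and Gm45833. Zfp11, a zinc finger protein, had medians of 2.46 CPM at GV and 7.87 at MI, and 12 of 15 MI oocytes above all GV oocytes. The antisense RNA Gm21917 (log2 fold change 1.89), the pseudogene Gm9894 (1.70), the protein-coding AU022252 (1.42), and the noncoding B130034C11Rik (1.74) and A430046D13Rik (0.96) had 9 to 11 of 15 MI oocytes there. AC126937.3, a record of the annotation's class for transcripts of unsettled nature (TEC), had the largest estimate, a log2 fold change of 3.08 with a standard error of 0.678, and 8 of 15. B130034C11Rik did not pass without MI oocytes 4, 8 and 9 (adjusted p = 0.0573) or with RLE factors (0.0515). AC126937.3 did not pass with RLE factors (adjusted p = 0.0519). Of the 12 higher genes 6 were protein-coding. Gm21917 lies across Fam186a on the other strand. On the same strand, AU022252 overlaps Tmem269, Mpv17 overlaps Gm29609 and Dennd5b overlaps Gm49058 by gene position. Overlap of exons was not looked at, so reads of either gene of a pair could have been counted for the other.

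**Figure D2:**
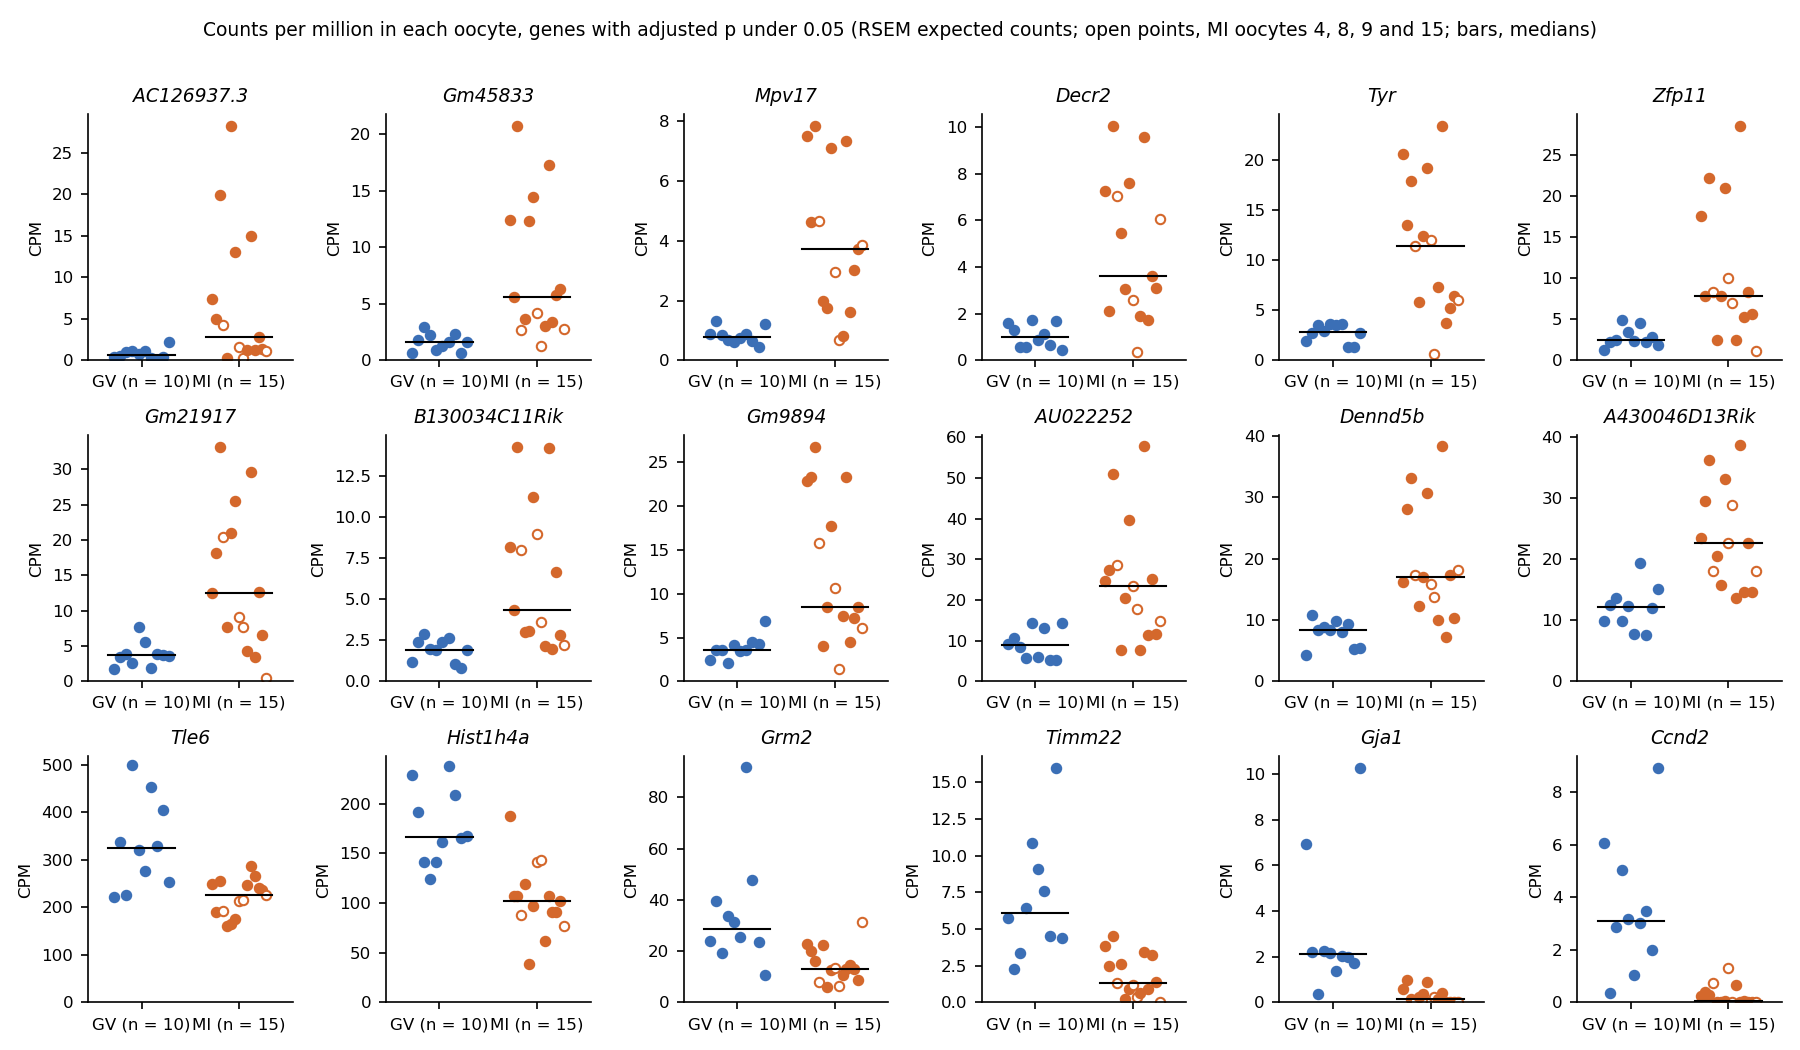
CPM of the 12 genes that rose and the 6 that fell between GV and MI, ordered by fold change, with 1 point per oocyte (10 GV, 15 MI), open points for MI oocytes 4, 8, 9 and 15, and bars at the medians. The MI oocytes of the higher genes are widely spread, and no gene is free of overlap between the stages.

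The higher genes differed in level from one MI oocyte to the next. Their summed level was 35.7 to 60.7 CPM in the GV oocytes (median 48.7) and 60.0 to 303 in the MI oocytes (median 124). MI oocytes 1, 2, 3, 7, 11 and 13 exceeded all GV oocytes in 12 of the 12 genes, and MI oocytes 9, 10, 12 and 15 in 4 or 5. MI oocyte 12, at 60.0 CPM, was within the GV range. The genes also parted within an oocyte. In MI oocyte 9, Tyr, Decr2 and Gm9894 were below every GV oocyte and Dennd5b and A430046D13Rik above all. In MI oocyte 15, Decr2 was above all (6.04 CPM) and Gm21917 (0.549 CPM) and Zfp11 (1.10 CPM) were below. With 2709247 counts in all in MI oocyte 15, such CPM stand for few counts. These genes were selected for being higher, so their sum is a description of the oocytes and not a test. Among the 15 MI oocytes the sum went with the number of genes detected (Pearson's r = 0.510, Spearman's rho = 0.579, r = 0.545 without the 2 oocytes farthest from the median) and little with total counts (r = 0.122, rho = -0.100). Among the 10 GV oocytes r with genes detected was -0.155. The part of this in the result was not tested.

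Most of the higher genes held few counts when reads were counted by HTSeq. RSEM divides reads that fit several genes among them, while HTSeq by default leaves such reads out. Over all genes tested the total HTSeq count was 1.91 times the RSEM count at the median gene, and 12.6% of genes had a ratio under 0.5. Among the 12 higher genes the median ratio was 0.0588, and 10 of 12 were under 0.5. For Tyr the mean per oocyte was 33.7 RSEM counts at GV and 149 at MI, against 1.00 and 3.87 HTSeq counts. Mpv17 had 11.0 and 52.3 RSEM counts against 0.1 and 4.2 HTSeq counts, and Decr2 14.3 and 62.5 against 4.70 and 2.53. Tyr, Mpv17, Decr2 and 5 others, 8 of 12, had too few HTSeq counts to be tested, as had 10.5% of all genes tested. Zfp11 and AU022252 could be tested, and their HTSeq log2 fold changes were 0.25 (adjusted p = 0.973) and 0.16 (adjusted p = 0.975). Only Dennd5b (1.41, adjusted p = 0.321) and A430046D13Rik (0.72, adjusted p = 0.549) kept more than 0.5 of an HTSeq count per RSEM count, and neither passed there. The 6 lower genes had a median ratio of 2.05, and 2 of 6 were under 0.5. Which reads make up the difference was not tested, as the reads were not at hand.

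**Figure D3:**
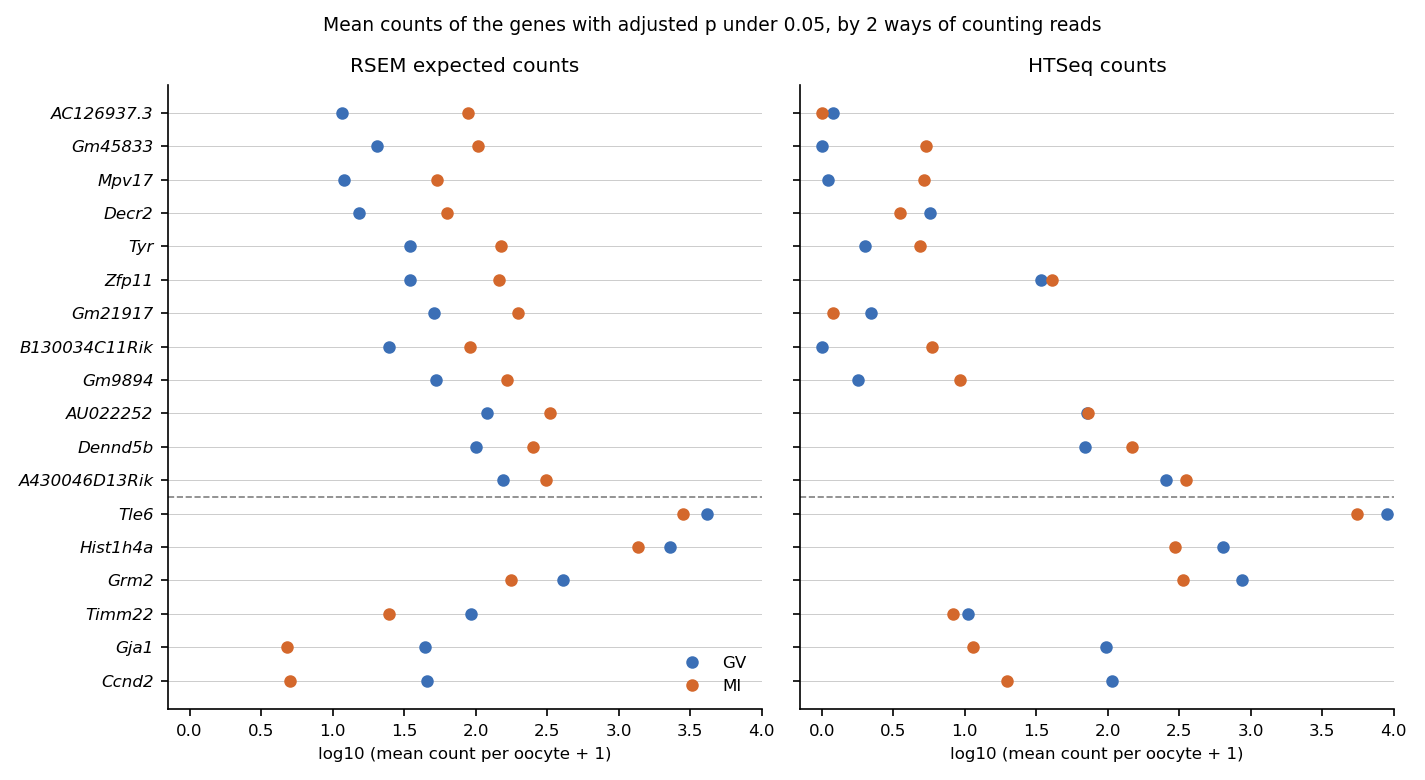
Mean count per oocyte of the 18 genes that passed, on a log10 scale after adding 1, by RSEM on the left and HTSeq on the right, with GV in blue and MI in orange; the dashed line divides the 12 higher from the 6 lower genes. Of the 12 higher genes 8 have HTSeq means under 10 at both stages, where RSEM gives means of 10.6 to 196.

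Gja1 and Ccnd2 fell from low levels to almost none. Gja1 encodes connexin 43, the gap junction protein that couples granulosa and cumulus cells. It was at 0.370 to 10.2 CPM at GV (median 2.10) and at 0 to 0.963 at MI (median 0.166). The 4 MI oocytes at 0 and 11 of 15 in all lay below the lowest GV oocyte, and none was above the GV median. The log2 fold change was -3.42 (standard error 0.617, adjusted p = 0.0177). Ccnd2 encodes cyclin D2, the cyclin of granulosa cell proliferation, and was at 0.354 to 8.92 CPM at GV (median 3.10) and 0 to 1.31 at MI (median 0.0431). It was at 0 in 7 of 15 MI oocytes, and 11 of 15 lay below all GV oocytes. Its log2 fold change was -3.69 (standard error 0.684, adjusted p = 0.0177). GV oocytes 10 and 1 were the highest for both, with 162 and 95 counts of Gja1 and 141 and 83 of Ccnd2. On HTSeq counts Gja1 averaged 96.7 and 10.5 and Ccnd2 107.0 and 18.8, with log2 fold changes of -3.27 and -2.22 that did not pass (adjusted p = 0.263 and 0.526). Both passed in limma-voom (adjusted p = 0.0137 for each).

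Both genes are on the list of 30 granulosa and cumulus markers, which was otherwise sparse. Of the 30, 9 could be tested, 2 fell, 0 rose and 7 did not pass, beside 0.0478% lower and 0.0957% higher of all genes tested. The median log2 fold change was 0.08. Of the 9 estimates 6 were above 0, and 1 gene was higher at an unadjusted p under 0.05. The defining markers Amh, Amhr2 and Foxl2, and Ptx3, were at 0 in all 25 oocytes, and 19 of 30 had a median count of 0. The summed level was 41.6 to 105 CPM at GV (median 56.2) and 43.5 to 97.2 at MI (median 58.9), with no difference past the test (permutation test on the difference of means, two-sided with 100000 resamples, p = 0.892). Nr5a2, a nuclear receptor, was the most abundant gene at a mean of 16.7 CPM, and Cyp19a1, the aromatase, was the most abundant per kilobase, with medians of 14.3 CPM at GV and 14.7 at MI. For Cyp19a1, 7 of 15 MI oocytes lay below every GV oocyte and 0 above all (log2 fold change -0.22, adjusted p = 0.743). Without MI oocytes 4, 8, 9 and 15 its MI median was 10.6 CPM (log2 fold change -0.38, adjusted p = 0.530). GV oocytes 10 and 1 had the highest sums among GV oocytes, 105 and 85.2 CPM, but these sums include Gja1 and Ccnd2 themselves. MI oocytes 15, 6 and 10 had sums of 97.2, 89.9 and 88.7 CPM. Their Gja1 was at 0, 0.352 and 0.166 CPM and their Ccnd2 at 0, 0 and 0.665 CPM. Kitl, the granulosa ligand of the oocyte's Kit receptor, was at 1.22 to 6.58 CPM at GV and 0 to 10.5 at MI (log2 fold change 0.04, adjusted p = 0.988). The part of granulosa RNA in the fall of Gja1 and Ccnd2 was not tested.

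The other 4 lower genes were Tle6, Hist1h4a, Timm22 and Grm2. Tle6, a member of the subcortical maternal complex that the early embryo needs, was at 222 to 500 CPM at GV (median 325) and 161 to 286 at MI (median 225). All 15 MI oocytes were below the GV median and 7 were below every GV oocyte. The log2 fold change was -0.59 (standard error 0.129, adjusted p = 0.04996), and the adjusted p was 0.0689 without MI oocytes 4, 8 and 9, 0.0523 without oocyte 15 as well, 0.0544 with RLE factors and 0.131 in limma-voom. Hist1h4a, a replication-type histone H4 gene, was at 125 to 238 CPM at GV (median 167) and 39.1 to 187 at MI (median 102). In 12 of 15 MI oocytes it was below every GV oocyte, with a log2 fold change of -0.76 and a standard error of 0.166 (adjusted p = 0.04996, and 0.0508 in limma-voom). Hist1h4a had 0.248 HTSeq counts per RSEM count. On HTSeq counts its log2 fold change was -0.95 and did not pass the quasi-likelihood test (adjusted p = 0.321). Timm22, a channel for import into the inner mitochondrial membrane, was at 2.28 to 16.0 CPM at GV (median 6.10) and 0 to 4.53 at MI (median 1.33). All 15 MI oocytes were below the GV median and 9 below every GV oocyte, the log2 fold change being -1.92 (standard error 0.424, adjusted p = 0.04996). The adjusted p of Timm22 was 0.0689 without MI oocytes 4, 8 and 9, 0.0519 with RLE factors and 0.0541 in limma-voom, but 0.0417 without oocyte 15 as well and 0.00157 in DESeq2. Its HTSeq counts were again few, with means of 9.60 and 7.27. Grm2, a metabotropic glutamate receptor, was at 10.9 to 91.7 CPM at GV (median 28.5) and 5.87 to 31.3 at MI (median 13.2), with a log2 fold change of -1.27 and an adjusted p of 0.0476. The adjusted p of Grm2 was 0.0678 without MI oocytes 4, 8 and 9, 0.0515 with RLE factors and 0.109 in limma-voom, but 0.0211 without oocyte 15 as well and 0.00271 in DESeq2. Only MI oocyte 15 was above its GV median, and 5 MI oocytes were below every GV oocyte. Of 25 fits with 1 oocyte left out, Tle6 and Hist1h4a each passed in 7, Grm2 in 6 and Timm22 in 5.

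In the separate GV and MII oocytes of batch A, the same genes were mostly not changed past the threshold. Timm22 was lower there too, at -4.80 on the log2 scale (adjusted p = 5.79e-06), beside -1.92 at MI. The log2 fold change was -0.50 for Tyr (adjusted p = 0.372), 0.16 for Mpv17 (adjusted p = 0.823), 0.26 for Dennd5b (adjusted p = 0.525), -0.45 for Tle6 (adjusted p = 0.0589) and 0.86 for Hist1h4a (adjusted p = 0.185). A430046D13Rik, higher at MI, was at -0.51 (adjusted p = 0.0577), Decr2 at 0.63 (adjusted p = 0.198) and Grm2 at 0.16 (adjusted p = 0.542). Gm21917, Zfp11, Gm9894, AU022252 and B130034C11Rik lay between -0.12 and 0.18, and none of them passed. Gja1, Ccnd2, Gm45833 and AC126937.3 had too few counts to be tested there. Differences between the 2 comparisons were not tested.

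Transcripts were tested in the same way. Of 23001 transcripts tested, edgeR passed 0 in each direction, with 1008 higher and 637 lower at an unadjusted p under 0.05, and DESeq2 passed 106 and 17. The smallest adjusted p was 0.202, and a look at that transcript after the test gave Cdc26-203, a nonsense-mediated decay transcript of a subunit of the anaphase-promoting complex (log2 fold change 2.01). Tyr-201 held 100% of the gene's counts at GV and 99.6% at MI (log2 fold change 2.02, adjusted p = 0.256). The Mpv17 counts lay in Mpv17-201 and Mpv17-202, with 7.3 and 3.6 counts per oocyte at GV and 18.9 and 33.1 at MI (for Mpv17-202 a log2 fold change of 2.92, adjusted p = 0.293), so that the share of Mpv17-202 was 32.7% at GV and 63.5% at MI. For Tle6, the retained-intron transcript Tle6-214 held 36.97% of the counts at GV and 30.5% at MI (log2 fold change -0.88, adjusted p = 0.349). Gja1-201 held 88.9% of the Gja1 counts at GV and 36.8% of the few at MI, where Gja1-208 held 57.9%. Ccnd2-201 held 95.5% of the Ccnd2 counts at GV and 25% at MI, where Ccnd2-206 held 70%. All 4 transcripts were too low to be tested. At MI, Gja1 averaged 3.8 counts per oocyte, with 21 in MI oocyte 7. Ccnd2 averaged 4.0, with 29 in MI oocyte 8, 11 in MI oocyte 4 and 0 in 7 oocytes. These shares at MI thus rest on few oocytes.

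Without MI oocytes 4, 8, 9 and 15 the 123 higher genes were of mixed class, and 66 of them were protein-coding. All 12 genes that rose with 25 oocytes were among them, and 5 of the 6 lower genes were among the 11. Each of the 123 had an unadjusted p under 0.05 with all 25 oocytes, where their median log2 fold change was 1.47. In MI oocyte 9, 111 of the 123 were below the GV median, and in MI oocyte 15, 86 were, against 0 in oocyte 4 and 2 in oocyte 8. Like the 12, they held few HTSeq counts, with a median ratio of 0.0561 and 106 of 123 under 0.5. In this smaller set Tyr, Gm45833 and Decr2 were free of overlap between the stages, 3 genes higher and 0 lower. Of 243 TEC records tested, 173 had an estimate above 0 and 68 were higher at an unadjusted p under 0.05 against 9 lower, with a median log2 fold change of 0.26. Over all 12543 genes these were 792 and 599 with a median of 0.02, and the median of the 10747 protein-coding genes was 0.01. The difference between classes was not tested. Of the 243 records 1 rose with all 25 oocytes and 23 without the 4, beside 0.0957% and 0.981% of all genes tested. They had 0.0138 HTSeq counts per RSEM count at the median, and 83.5% were under 0.5, against 6.68% of the protein-coding genes. Antisense records had a median log2 fold change of 0.14 (163 of 277 above 0), and lincRNAs of 0.01.

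Among the oocyte's own growth factors and coat proteins no gene passed, beside 0.0957% higher and 0.0478% lower of all genes tested. Gdf9 was at 1355 to 3688 CPM at GV (median 1945) and 1210 to 2671 at MI (median 1618). The ranges overlapped, and the log2 fold change was -0.27 (adjusted p = 0.505). For Bmp15, its partner, medians were 403 and 336 CPM (log2 fold change -0.21, adjusted p = 0.591). Zp3, the sperm-binding zona protein, had medians of 286 and 267 CPM (log2 fold change -0.27, adjusted p = 0.721), while in batch A it was lower at MII by a log2 fold change of -2.21 (adjusted p = 1.06e-05). Of the 15 oocyte markers, 12 had an estimate below 0, 4 of them at an unadjusted p under 0.05, and their median log2 fold change was -0.24, beside 0.02 over all genes. Their summed CPM was below the GV median in 14 of 15 MI oocytes (permutation test, p = 0.0160, 0.0800 after adjustment over the 10 measures compared per oocyte). With ribosomal RNA-like genes left out of the library size the adjusted p was 0.0457. It was 0.237 without MI oocytes 4, 8, 9 and 15, 0.0928 on HTSeq counts and 0.225 on those without oocytes 4, 8 and 9. The 14 zona and secreted factors had a median of -0.17.

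Among the mRNAs that oocytes store and translate on maturation no gene passed, beside 0.0957% higher and 0.0478% lower of all genes tested. With shares this low, 0 in such a list says little about it. Mos, the kinase that starts the MAP kinase cascade of maturation, was at 147 to 244 CPM at GV (median 187) and 112 to 211 at MI (median 165). The ranges overlapped, but 13 of 15 MI oocytes were below the GV median, with a log2 fold change of -0.18 (adjusted p = 0.532). Ccnb1, cyclin B1, had medians of 325 and 272 CPM (log2 fold change -0.17, adjusted p = 0.729), and Btg4, the adaptor that brings the CCR4-NOT deadenylase to maternal mRNAs, 1104 and 871 (-0.27, adjusted p = 0.455). Plat, the tissue plasminogen activator, was at 2012 and 2071 CPM (0.07, adjusted p = 0.902), Tpx2, a spindle assembly factor, at 131 and 155 (0.20, adjusted p = 0.643), and Cnot7, a deadenylase subunit, at 143 and 117 (-0.19, adjusted p = 0.492). Cnot7 was below the lowest GV oocyte in 9 of 15 MI oocytes and Btg4 in 8 of 15. The list of 25 such transcripts had 10 estimates above and 15 below 0 and a median log2 fold change of -0.01, and its summed level was 8037 to 9295 CPM at GV and 7846 to 10393 at MI (permutation test, p = 0.849). In batch A the median of the same 25 was 0.36, with 10 higher and 2 lower at MII, beside 9.05% higher and 11.4% lower of all genes tested there. Deadenylation and decapping genes (31 tested, median 0.00) and genes of poly(A) and translational control (22 tested, median 0.03, with Zar1l the most abundant at -0.23) had no member past the threshold.

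Stored mRNAs of this kind are known to carry the cytoplasmic polyadenylation element near their 3′ end, so the last 100 bases of the annotated 3′ UTR were searched on the sense strand for TTTTAT or TTTTAAT. Of 10479 genes tested with such a UTR, 2053 held a match (19.6%), and their median log2 fold change was 0.02, against 0.01 for the 8426 without. In batch A the medians were 0.20 and -0.01. For TGTANATA, the Pumilio motif, 551 genes matched (5.26%), with medians of 0.01 with and 0.01 without it, and 0.13 and 0.02 in batch A. Of 10 genes described here whose 3′ ends were looked at, Btg4, Gdf9, Plat, Tpx2 and Tyr held the polyadenylation motif. They are shown because RSEM gives them counts at both stages and the element is the best known mark of stored mRNAs. For Tyr the HTSeq means were only 1.00 and 3.87 counts, so its RNA is less certain. Sequences are from the GENCODE M21 transcripts, 5′ to 3′, with the motif in capitals.
Btg4: aaatccctTTTTATgtcttttt
Gdf9: tgctgtggTTTTATgtgacgga
Plat: tatttataTTTTAATctatttta
Tpx2: tttcttgaTTTTATatatttgg
Tyr: ttactttaTTTTAATgatgaaga
On GRCm38 (mm10) these are chr9:51119801-51119822 (+) for Btg4, chr11:53437858-53437879 (+) for Gdf9, chr8:22782748-22782770 (+) for Plat, chr2:152894612-152894633 (+) for Tpx2 and chr7:87424837-87424859 (-) for Tyr. Bmp15, Ccnb1, Cnot7 and Mos held no polyadenylation motif in this window, and Cnot7 held 1 match of TGTANATA. The annotated 3′ UTR of Zp3 has 13 bases, so its lack of a match says little. A match is a description of the letters and not a known site.

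In the machinery of the first division no listed gene passed, beside 0.0957% higher and 0.0478% lower of all genes tested. At shares this small, a count of 0 in a list says little about its genes. Of 28 genes of M-phase kinase and arrest control none passed, with a median log2 fold change of -0.06. The 30 genes of the anaphase-promoting complex and spindle checkpoint had 9 estimates above and 21 below 0 (median -0.06, from -1.10 to 0.73), and Bub1b, the checkpoint kinase BubR1 and the most abundant of them, had medians of 1435 CPM at GV and 1662 at MI (log2 fold change 0.21, adjusted p = 0.555). Of 35 spindle and kinetochore genes none passed (median 0.04). Tacc3, which stabilises spindle microtubules, was at 462 and 542 CPM (0.09, adjusted p = 0.860). Kinesins (29 tested) had a median of 0.08 that turned to -0.02 without MI oocytes 4, 8, 9 and 15, with Kif2c, a microtubule depolymerase, at -0.10. Tubulins (14 tested) had a median of -0.13, and their most abundant member Tuba3a an estimate of 0.33 (adjusted p = 0.506). MI oocyte 15 was the highest for Tuba3a at 496 CPM, and the estimate was 0.10 without MI oocytes 4, 8, 9 and 15. The 26 nuclear pore genes, whose envelope has been taken apart by MI, had a median of -0.06, with Tpr at 0.09.

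The share of all genes tested that fell was 0.0478%, 6 of 12543, and 2 of the 6 are on lists of egg proteins and histones. In the subcortical maternal complex and Nlrp list 1 of 16 fell, Tle6, and 12 estimates were below 0 (median -0.09), while its most abundant member Zbed3 was at 0.02. Of 55 histone genes tested, 1 fell, Hist1h4a, and 38 estimates were below 0 (median -0.20). H1foo, the linker histone of oocytes, was at 950 to 1972 CPM at GV (median 1550) and 687 to 1447 at MI (median 1135). It was below the GV median in 15 of 15 MI oocytes but did not pass (log2 fold change -0.41, adjusted p = 0.208). Of 23 maternal epigenetic regulators none passed with all 25 oocytes (median 0.10).

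Pigment genes were listed with the rise of Tyr known, and stress genes because MI oocytes had been cultured. Of 12 pigment synthesis genes 7 could be tested, 1 rose, Tyr, for which the list was drawn up, beside 0.0957% of all genes tested. Of the 7 estimates 4 were below 0 (median -0.01). Dct, which acts after tyrosinase, was the most abundant per kilobase, at 84.0 to 206 CPM at GV (median 131) and 18.5 to 561 at MI (median 178). Its ranges overlapped, and its log2 fold change of 0.78 did not pass (adjusted p = 0.359). All RSEM counts of Dct lay in Dct-204, a retained-intron transcript (100% at both stages), so they need not be mRNA for the enzyme. Dct too had few HTSeq counts, with means of 8.2 at GV and 10.0 at MI, and Tyrp1 was at 0 in all 25 oocytes. Early response and heat shock genes had 11 of 17 estimates above 0 (median 0.17) and none passed. Hsp90aa1, their most abundant chaperone, was at 2388 and 2746 CPM (log2 fold change 0.20, adjusted p = 0.611). Antioxidant genes had 12 of 20 estimates below 0 (median -0.13), with Glrx, glutaredoxin, at -0.10.

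Mitochondrial RNA took a lower share of the counts at MI. The 37 mitochondrially encoded genes, of which 14 could be tested, took 1.53% to 2.99% of the counts of a GV oocyte (median 2.01%) and 1.12% to 1.97% of an MI oocyte (median 1.63%). The ranges overlapped, but 15 of 15 MI oocytes were below the GV median. The means differed by -0.498 percentage points (permutation test, two-sided, p = 0.00192, adjusted p = 0.0192 over the 10 measures). The adjusted p was 0.0457 with ribosomal RNA-like genes left out, 0.0694 without MI oocytes 4, 8, 9 and 15, 0.0558 on HTSeq counts and 0.225 on HTSeq counts without MI oocytes 4, 8 and 9. The ratio of the MI to the GV mean was 0.759 with all oocytes and, in the same order, 0.758, 0.761, 0.741 and 0.779. No single mitochondrial gene passed, beside 0.0957% higher and 0.0478% lower of all genes tested. Of the 14, 13 had estimates below 0 and 6 of these an unadjusted p under 0.05, with a median log2 fold change of -0.39. The ribosomal RNA mt-Rnr2, the most abundant, was at 10003 to 20947 CPM at GV (median 12851) and 7103 to 17057 at MI (median 10707), a log2 fold change of -0.36 (adjusted p = 0.276). At MII in batch A 14 of 14 of these genes were higher than at GV (9.05% of all genes tested there), with a median of 1.2003, and whether the direction differs between the comparisons was not tested.

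Nuclear genes of the respiratory chain and of mitochondrial ribosomes had no member past the threshold. Of all genes tested, 0.0957% were higher and 0.0478% lower past it, so 0 in a list says little. Of 79 nuclear-encoded subunits of the respiratory chain 60 had estimates below 0 and 16 an unadjusted p under 0.05 in that direction, against 1 higher, and the median log2 fold change was -0.24. Over all 12543 genes tested 599 were lower and 792 higher at that p, with a median of 0.02. Cox6b1, a cytochrome oxidase subunit, had medians of 49.6 CPM at GV and 39.2 at MI (log2 fold change -0.22, adjusted p = 0.664). Mitochondrial ribosomal proteins had a median of -0.07 (44 of 76 below 0), with the most abundant, Mrpl22, at 0.17. Cytoplasmic ribosomal proteins had a median of -0.11 (51 of 82 below 0) and took a median of 0.240% of counts at GV and 0.229% at MI (permutation test, p = 0.567). In batch A their median was -1.08, and 60 of the 82 were lower at MII, beside 11.4% of all genes tested there. Rpl19, the most abundant per kilobase, was at -0.02 between GV and MI. Proteasome subunits (42 tested, median -0.04, Psmd4 at 0.14) and translation factors (62 tested, median -0.07, Eif2b4 at 0.07) had no member past the threshold.

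**Figure D4:**
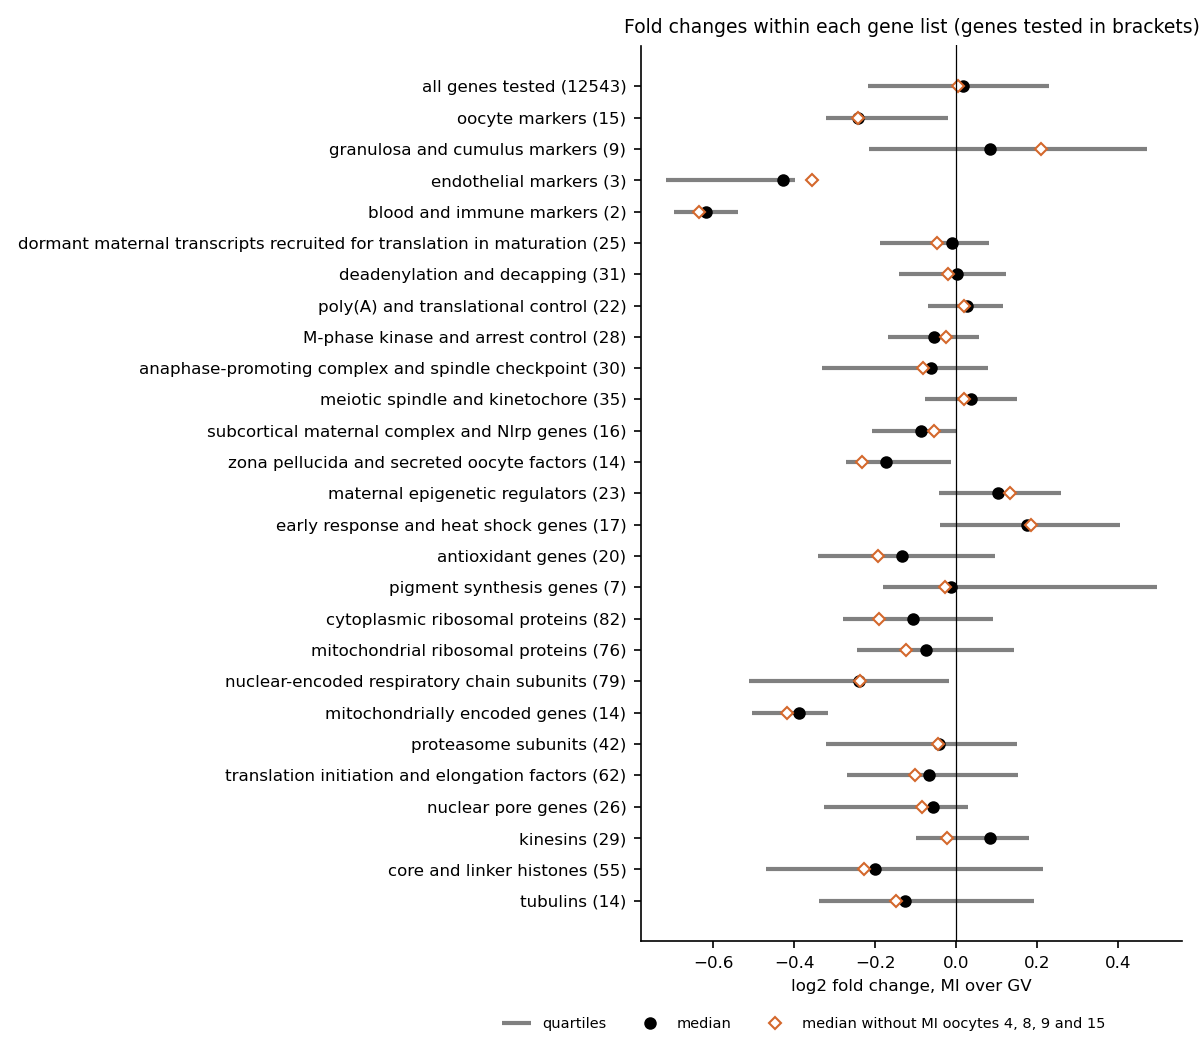
Median log2 fold change from GV to MI (black points) and quartiles (grey lines) over the tested genes of each list, with the number tested in brackets, and the median without MI oocytes 4, 8, 9 and 15 as open diamonds. Mitochondrially encoded genes lie lowest among the lists with more than 3 genes tested, at -0.39, and most medians lie within the quartiles of all genes tested.

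Of the markers of the remaining cell types, those that could be tested did not pass, beside 0.0957% higher and 0.0478% lower of all genes tested. None of the 7 theca and stroma markers had counts enough to be tested. Their summed median was 1.80 CPM at GV and 0.518 at MI, a difference that was not tested, with Col3a1, a fibrillar collagen, the most abundant. Endothelial markers (3 of 4 tested) summed to medians of 66.1 and 58.8 CPM, nearly all of it Pecam1 (log2 fold change -0.43, adjusted p = 0.563). That estimate hung on GV oocyte 4, at 319 CPM of Pecam1 where the next GV oocyte had 69.5, and it was 0.12 without this oocyte, 0.12 with DESeq2 and 0.06 on HTSeq counts. Blood and immune markers (2 of 9 tested) summed to medians of 5.206 and 3.301 CPM, with Hbb-bs, a beta globin, the most abundant at a log2 fold change of -0.46 (adjusted p = 0.779).

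The remaining measures of each oocyte did not separate the stages. Ribosomal RNA-like genes took 27.4% to 50.1% of counts at GV (median 36.3%) and 20.8% to 50.3% at MI (median 31.4%, permutation test, p = 0.945). The 100 most abundant genes took medians of 58.8% and 57.0% (p = 0.978 by permutation test), and adjusted p-values of total counts, genes detected and the HTSeq to RSEM ratio were 0.999, 0.792 and 0.470. On HTSeq counts the genes detected averaged 17947.5 at GV and 16276.8 at MI (permutation test, p = 0.0124, adjusted p = 0.0558). Without MI oocytes 4, 8 and 9 that adjusted p was 0.225. In a principal component analysis of the 25 oocytes PC 1 held 12.9% of the variance, of which 0.502% lay between the stages, and MI oocyte 15 had the most extreme score on it (-161, the next being MI oocyte 9 at -39.6). PC 2 held 11.7%, with 18.6% between the stages, PC 4 held 5.40%, with 21.9%, and PC 5 held 4.83%, with 18.1%. Oocytes also carry numbers, and GV and MI oocytes of the same number might have been thought to be paired. The correlations of same-numbered oocytes were -0.147 to 0.105, and 0 of 10 correlated best with their own number. With the number as a replicate block, edgeR passed 0 genes higher and 0 lower, with 516 and 486 at an unadjusted p under 0.05, and no other tool was run with the block.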

How the data were processed

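RNA of single mouse oocytes was sequenced without molecular identifiers. The authors trimmed reads with Trim Galore 0.6.4 and deposited, per gene and per transcript, expected counts from RSEM 1.3.1. The authors also deposited counts per gene from HTSeq 0.12.4 on STAR 2.7.6a alignments, with strandedness and overlap mode not stated. Neither is normalized. Names, classes and positions are from GENCODE M21 on GRCm38 (mm10), a release after the VM20 used for the files.

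Expected counts were rounded and ERCC rows left out. Genes or transcripts with 10 or more counts in at least 10 of the 25 oocytes (in batch A, 6 of 12) were tested with edgeR 4.0.16 (quasi-likelihood F test, TMM) in R 4.3.3, with Benjamini-Hochberg adjustment over all of them. A gene passed at an adjusted p under 0.05. The standard error is the log2 fold change over the square root of F. CPM, alone or summed, use TMM library sizes, while per-oocyte shares use all counts. Single values were compared by two-sided permutation tests of 100000 resamples (scipy 1.17.1, in Python 3.11.15 with numpy 2.4.6 and pandas 2.3.3). The tests were tried on simulated counts, where the quasi-likelihood test did not recover every gene given a known change. A gene that did not pass may thus still differ.

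Named genes are up to 12 higher and 12 lower by smallest p among those that passed, a panel of 14 genes, and in each list up to 4 members that passed and the most abundant per kilobase. The members, lists and panel were chosen with earlier results of these data known. Genes or transcripts outside this rule, the HTSeq to RSEM ratios by gene, the sums over the genes that passed and 3 alternatives (per-oocyte measures on HTSeq counts without MI oocytes 4, 8 and 9, list medians without these oocytes, and motif medians without these and 15) were chosen after seeing the data.

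Alternatives were RLE factors, DESeq2 1.42.0, limma-voom (limma 3.58.1), robust empirical Bayes, no filter, filterByExpr, HTSeq counts, oocytes left out, replicate number as a block, a model of all 37 oocytes with batch, and ribosomal RNA-like genes left out.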

Additional observations from a re-analysis of the deposited data

Results flagged for a closer look

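A GV oocyte stood far from the other 9 in 11 of 65 values looked at. The rule marks about 1 in 20 groups by chance if values are independent and normal, but CPM are skewed and some of the 65 overlap, such as Pecam1 and the endothelial sum, so no excess over chance is shown. The MI group, with 15 oocytes, is too large for the rule used. GV oocyte 7 had 70.8% of its counts in the 100 most abundant genes, 91.7 CPM of Grm2 and 1671 CPM of Btg4, each the highest of the GV oocytes by a wide gap, and Grm2 is among the genes that fell. GV oocyte 4 had the highest HTSeq to RSEM ratio (2.19), 319 CPM of Pecam1 and thus 322 CPM of endothelial markers in all, where the next oocytes had 69.5 and 72.0. GV oocyte 10 was highest for Gm9894 (6.89 CPM) and AC126937.3 (2.28 CPM), both among the genes that rose. GV oocyte 1 was highest for Zar1l (205 CPM) and Psmd4 (482 CPM), and GV oocyte 8 for Col3a1 (4.59 CPM). The causes were not tested.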

How the results depend on the processing

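Of the 12 and 6 genes that passed, all kept their sign under every alternative where they could be tested except Zfp11 (-0.31) and AU022252 (-0.11), which turned below 0 on HTSeq counts without MI oocytes 4, 8 and 9 and passed on neither version of those counts. Gja1 and Ccnd2 passed in 25 of 25 fits with 1 oocyte left out, Tyr, Mpv17 and Gm45833 in 24, and the other 13 in 5 (Timm22), 6 (Grm2) or up to 20 (Dennd5b). The counts moved further. Genes that passed (main 12 higher, 6 lower) or that also changed over 2-fold (11, 4) were, as passed higher and lower and then over 2-fold higher and lower, 145, 43, 117 and 15 with DESeq2, 0, 4, 0 and 3 with limma-voom, 19, 25, 18 and 22 with no filter on low counts, 33, 4, 31 and 3 without MI oocytes 4, 8 and 9, 18, 6, 17 and 4 without MI oocyte 15, 123, 11, 118 and 7 without all 4, and 93, 46, 77 and 15 with batch A added and batch modelled (37 oocytes). RLE factors gave 3 lower genes that passed and 2 over 2-fold. All 4 counts were 0 on HTSeq counts, with or without MI oocytes 4, 8 and 9 (edgeR, 493 and 440 or 444 and 447 genes at an unadjusted p under 0.05), and with the replicate block (516 and 486). With 1 oocyte left out, 0 (without GV oocyte 9) to 82 (without MI oocyte 9) passed higher and 2 to 15 lower, and 0 to 76 and 2 to 7 were over 2-fold. Transcripts that passed (0 and 0) were 106 and 17 with DESeq2, 3 higher without the 4 oocytes and 2 lower with no filter. Genes free of overlap (0) were 3 higher without the 4. The adjusted p of the mitochondrially encoded share (0.0192) was 0.0694 without the 4, 0.0558 on HTSeq counts and 0.225 on those without MI oocytes 4, 8 and 9, and that of the oocyte markers (0.0800) was 0.0457 with ribosomal RNA-like genes left out. Robust empirical Bayes and filterByExpr kept the 18 genes. Without the 4 oocytes the list medians of kinesins (0.08 to -0.02) and deadenylation genes (0.00 to -0.02) turned below 0. Those of granulosa markers (0.08 to 0.21), cytoplasmic (-0.11 to -0.19) and mitochondrial ribosomal proteins (-0.07 to -0.12), translation factors (-0.07 to -0.10), dormant transcripts (-0.01 to -0.05) and pigment genes (-0.01 to -0.03) grew, and those of M-phase kinases (-0.06 to -0.03), spindle genes (0.04 to 0.02) and the maternal complex (-0.09 to -0.06) shrank, by more than 1.5 times, as did that of all genes (0.02 to 0.00). Other alternatives moved more medians by over 1.5 times. Without MI oocytes 4, 8 and 9 they included nuclear pore genes (-0.06 to -0.11) and proteasome subunits (-0.04 to -0.08). On HTSeq counts without these oocytes they included histones (-0.20 to -0.36) and pigment genes (-0.01 to -0.19). Among named genes that did not pass, Plat (0.07 to -0.05) and Zbed3 (0.02 to -0.06) turned below 0 without the 4 oocytes. Some others shrank, such as Tpx2 (0.20 to 0.09). Fewer oocytes or another choice of genes tested are part of some alternatives, and beyond that the cause was not tested. Low counts, averaging 43.3 for Gja1 and 44.5 for Ccnd2 at GV, limit what can be seen.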
